A study of Mus musculus with 22 samples.

Results

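Gad1, Gad2, Slc32a1, Slc6a5, Slc6a9, Slc6a11 and Abat are 7 genes of GABA and glycine synthesis and transport. They were taken by name from the deposited expression table, where all 7 of 7 were found among 21363 genes, and all 7 passed the filter on low values. GABA and glycine are the fast inhibitory transmitters of the spinal cord. Inhibitory neurons make GABA from glutamate, load GABA and glycine into synaptic vesicles through a shared transporter, and clear both again with plasma membrane transporters on neurons and astrocytes. In the dorsal horn these transmitters restrain touch, itch and pain signals, and many inhibitory neurons there can release both.

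Nuclear RNA was sequenced from the lumbar dorsal horn of both sides of pDyn-Sun1-GFP mice. In this strain the nuclear envelope protein Sun1 fused to GFP marks cells of the lineage of prodynorphin (pDyn), the precursor of the dynorphin opioid peptides. From each of 11 animals, flow sorting of 5000 nuclei per sample gave GFP+ nuclei, labelled as pDyn-lineage, and GFP- nuclei, labelled as unidentified and not of that lineage. The animals were 7 days old (P7, 4 libraries per population), 21 days old (P21, 3 per population) or 80 days old (P80, 4 per population), and all carried the same transgene with no treatment named in the labels. The GFP- nuclei are a mixture of the other neurons and the non-neuronal cells of the tissue, so they are no inhibitory or neuronal control. Library codes (ES1 to ES24) are those of the table's columns, and the labels do not tie them to single animals.

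The 22 libraries held between 4244987 and 10849169 reads assigned to genes, with a median of 5359703, and 1 read was worth between 0.547 and 1.31 normalized counts. Normalized counts are reads per gene divided by 1 size factor per library. The smallest member count was 28 reads, for Slc32a1 in library ES12. Prodynorphin (Pdyn) was at 511 ± 75.2 normalized counts in GFP+ nuclei and at 7.42 ± 5.11 in GFP- nuclei (SD, n = 11 each). The 14 pan-neuronal genes were all higher in GFP+ nuclei, and their mean log2 level, used below as a pan-neuronal score, was 9.60 to 9.94 in GFP+ libraries. It was 8.15 to 9.29 in GFP- libraries, with 3 of these at the bottom: ES12 at 8.15, ES8 at 8.19 and ES16 at 8.42. Library ES16 also held both Xist (3631) and the 4 Y-linked genes together (2153), whereas in the 21 other libraries the smaller of those measures was at most 247. The summed meningeal fibroblast genes were at 7683 in ES16, with ES22 next at 1946. Endothelial and mural genes summed to 6814 in ES16, with ES8 next at 946. Of the inhibitory lineage genes 6 of 10 were higher in GFP+ nuclei, among them the transcription factors Pax8 and Pax2 at 3.12 and 2.18 on the log2 scale, 1 was lower (Lhx1 at -0.76) and 3 did not pass. Of the excitatory neuron genes 5 of 9 tested were lower and 2 higher, the latter being Tacr3 at 2.58 and Slc17a6, the vesicular glutamate transporter, at 0.38. Over all tested genes 22.6% were higher and 25.5% lower. Lhx1 was at -1.20 and Slc17a6 at 0.14 (limma adjusted p = 0.158) without ES8, ES12 and ES16. Values without those 3 libraries are given for many, but not all, results where they differ in call or markedly in size. At P21 this leaves ES14 as the only GFP- library, which the fit assumes to vary like the other groups. In such bulk samples, fewer cells of a type and less RNA per cell cannot be told apart.

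Gad1, Gad2 and Slc32a1, the genes for the 2 enzymes and the vesicle transporter that together define a GABA-releasing terminal, moved together in these libraries, and their start regions are shown here for that reason. The promoters, from RefSeq (GRCm38.p6, forward strand, 250 bases before to 50 after the start), carry in capitals each E-box, CANNTG, the core that basic helix-loop-helix factors of neurogenesis bind. The glycine transporter Slc6a5 is shown beside them, at the first of its 2 listed starts. The regions are chr2:70561879-70562178 for Gad1, chr2:22622077-22622376 for Gad2, chr2:158610508-158610807 for Slc32a1 and chr7:49910049-49910348 for Slc6a5.
Gad1: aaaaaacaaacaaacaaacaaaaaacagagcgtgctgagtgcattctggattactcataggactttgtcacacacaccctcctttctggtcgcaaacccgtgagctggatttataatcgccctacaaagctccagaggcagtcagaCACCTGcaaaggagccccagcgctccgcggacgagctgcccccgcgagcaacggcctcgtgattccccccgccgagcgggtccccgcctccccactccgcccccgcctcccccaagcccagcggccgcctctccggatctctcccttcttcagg
Gad2: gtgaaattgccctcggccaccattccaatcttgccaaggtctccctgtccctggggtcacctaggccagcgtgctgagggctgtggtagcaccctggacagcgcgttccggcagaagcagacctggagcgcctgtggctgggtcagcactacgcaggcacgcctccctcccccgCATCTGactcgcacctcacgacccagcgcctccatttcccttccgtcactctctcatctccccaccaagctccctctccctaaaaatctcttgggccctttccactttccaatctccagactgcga
Slc32a1: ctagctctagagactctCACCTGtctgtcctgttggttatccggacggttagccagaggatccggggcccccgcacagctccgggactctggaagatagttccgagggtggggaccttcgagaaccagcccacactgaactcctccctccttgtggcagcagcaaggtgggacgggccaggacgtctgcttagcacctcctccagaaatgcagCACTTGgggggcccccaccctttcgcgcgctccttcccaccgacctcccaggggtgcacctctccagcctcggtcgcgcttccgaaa
Slc6a5: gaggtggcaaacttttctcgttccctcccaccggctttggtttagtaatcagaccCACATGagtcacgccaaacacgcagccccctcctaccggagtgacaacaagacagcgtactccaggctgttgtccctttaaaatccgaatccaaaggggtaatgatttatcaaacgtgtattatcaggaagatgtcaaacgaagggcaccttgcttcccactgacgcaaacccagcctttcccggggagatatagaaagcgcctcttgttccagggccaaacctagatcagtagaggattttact
The Gad1, Gad2 and Slc6a5 regions held 1 E-box each and the Slc32a1 region held 2. The motif reads the same on both strands, and 72.3% of 32851 mouse promoters of the same length hold it, so its presence here is the usual case. The homeodomain core TAATTA, searched on both strands, was in 5.29% of promoters and in 0 of the 9 listed for 6 of the members. The number of CG pairs was 21 in the Gad1 region, 14 in Gad2, 17 in Slc32a1 and 12 in Slc6a5, against a median of 7 over all promoters.

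By GENCODE annotation of GRCm38 the members lie on the forward strand at chr2:70553072-70602014 (Gad1), chr2:22622205-22693874 (Gad2), chr2:158610767-158615748 (Slc32a1), chr7:49910146-49963856 (Slc6a5), chr4:117834506-117875198 (Slc6a9), chr6:114131241-114249952 (Slc6a11) and chr16:8513429-8621568 (Abat). The sources used here do not give the authors' build. Exons of Slc6a9 share 1429 bases with Ccdc24 on the opposite strand, and whether counting used strand is not stated, so part of the Slc6a9 reads could come from that gene. Ccdc24 averaged 38.3 normalized counts over all libraries. The 2797 exon bases of Slc32a1 share 697 with an opposite-strand transcript, Gm14205, not analysed here.

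Gad1 encodes the glutamate decarboxylase found throughout the cell, which makes most of the GABA of a neuron. Values of a group are given in the order of the library codes. In GFP+ nuclei it was at 1475, 1449, 1448 and 1272 normalized counts at P7, at 1199.8, 1153 and 1317 at P21, and at 1293, 1432, 1279 and 1425 at P80. In GFP- nuclei it was at 535, 482, 458 and 520.5 at P7, at 175, 516 and 259 at P21, and at 454, 421, 525 and 178 at P80. Each GFP+ library lay above each GFP- library, across ages as well as within them. The 3 GFP+ groups overlapped one another, while the GFP- groups spread downward through ES12, ES16 and ES8, the libraries with the lowest pan-neuronal scores. The GFP+ minus GFP- difference, averaged over the ages, was 1.82 ± 0.16 on the log2 scale (SE, limma adjusted p = 1.04e-08).

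Gad2 encodes the decarboxylase concentrated at synaptic terminals. Its GFP+ values were 953, 1148, 990.4 and 936 at P7, 807, 1002 and 1015 at P21, and 872, 895, 898 and 999 at P80. Its GFP- values were 360.5, 324, 349 and 399 at P7, 94.1, 341 and 187 at P21, and 323, 271, 312 and 133 at P80. As for Gad1, the lowest GFP+ library stood above the highest GFP- library. The averaged difference was 1.91 ± 0.17 (limma adjusted p = 7.41e-09).

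Slc32a1 encodes the vesicular transporter that loads both GABA and glycine. It was at 273, 316, 237 and 264 normalized counts in GFP+ nuclei at P7, at 219, 272 and 294 at P21, and at 283, 233, 234 and 251 at P80. In GFP- nuclei the values were 92.4, 90.3, 70.0 and 66.1 at P7, 27.7, 91.0 and 55.8 at P21, and 108, 63.8, 106 and 30.7 at P80. GFP+ and GFP- libraries did not overlap at any age or across ages. The averaged difference was 1.97 ± 0.19 (limma adjusted p = 3.69e-08).

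Over all 11 libraries of a population, the level of each of these 3 genes varied less in GFP+ than in GFP- nuclei. Their coefficients of variation over the 11 GFP+ libraries were 8.26% for Gad1, 9.50% for Gad2 and 11.3% for Slc32a1, against 33.8%, 35.3% and 37.9% over the 11 GFP- libraries. At P7, which holds none of ES8, ES12 and ES16, they were 6.60%, 9.61% and 12.1% in GFP+ libraries. The GFP- libraries of P7 gave 7.06%, 8.65% and 17.0%. Per kilobase of merged exon, GFP+ means were 175 ± 14.5 for Gad1, 163 ± 15.5 for Gad2 and 93.4 ± 10.6 for Slc32a1 (SD, n = 11). GFP- means were 53.8, 47.9 and 26.1. They were 64.0 ± 5.43, 57.0 ± 6.39 and 30.8 ± 6.26 without ES8, ES12 and ES16 (SD, n = 8). Without ES8, ES12 and ES16 the differences were 1.43 for Gad1, 1.51 for Gad2 and 1.57 for Slc32a1, with limma adjusted p-values of 1.67e-16, 5.83e-16 and 7.64e-12.

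Slc6a5 encodes the neuronal glycine transporter that refills glycinergic terminals and marks glycine-releasing neurons. Its GFP+ values were 694, 696, 784 and 629 at P7, 1014, 1132 and 962 at P21, and 1081, 1042, 1105 and 1008 at P80. Its GFP- values were 413, 356, 462 and 421 at P7, 134, 597 and 342 at P21, and 982, 390.4, 948 and 162 at P80. Within each age the GFP+ libraries lay above the GFP- libraries, but ES2 and ES6, GFP- libraries of P80, exceeded all 4 GFP+ libraries of P7. The GFP- group at P80 ran from 162 to 982, the widest relative spread of Slc6a5 in any group, with a coefficient of variation of 65.9%. The averaged difference was 1.21 ± 0.26 (limma adjusted p = 0.000658), and 0.71 (limma adjusted p = 0.0018) without ES8, ES12 and ES16. Per kilobase, Slc6a5 averaged 128 in GFP+ nuclei and 65.7 in GFP- nuclei.

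Slc6a9 encodes the glycine transporter best known from astrocytes, which clears glycine from the extracellular space. It was the reverse of the genes above. GFP+ values were 110.2, 119, 138 and 197 at P7, 149.8, 112 and 133 at P21, and 88.3, 106, 82.1 and 97.5 at P80. GFP- values were 348, 469, 361 and 515 at P7, 788, 383 and 277 at P21, and 268, 496, 404 and 778 at P80. Each GFP+ library lay below each GFP- library, and the 2 highest values belonged to ES12 and ES8, where Gad1, Gad2 and Slc32a1 were lowest. The averaged difference was -1.87 ± 0.17 (limma adjusted p = 1.71e-08). Per kilobase, the mean levels of both glycine transporters stood in opposite order in the populations, with Slc6a9 at 23.6 in GFP+ nuclei, below Slc6a5, and at 89.9 in GFP- nuclei, above it. The GFP- order rested on the libraries of low neuronal score: without ES8, ES12 and ES16, Slc6a9 was at 78.9 ± 16.3 and Slc6a5 at 79.3 ± 35.2 (SD, n = 8). Slc6a9 was above Slc6a5 in 8 of 11 GFP- libraries and below it in ES2, ES6 and ES14.

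Slc6a11 encodes a GABA transporter of astrocyte processes. GFP+ values were 371, 554, 408 and 474 at P7, 229, 230.0 and 220.5 at P21, and 176, 179.9, 134 and 183 at P80. GFP- values were 950.2, 1174, 741 and 1083 at P7, 1082, 556 and 350.6 at P21, and 360.4, 435, 357 and 489 at P80. GFP+ and GFP- libraries did not overlap within an age, yet the GFP+ libraries of P7 reached the level of GFP- libraries of P80. In GFP+ nuclei the 3 ages formed 3 separate ranges in descending order. The averaged difference between populations was -1.26 ± 0.14 (limma adjusted p = 1.96e-07).

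Abat encodes the mitochondrial GABA transaminase, which breaks GABA down in neurons and glia. GFP+ values were 1111, 1054, 1053 and 1136 at P7, 1121, 1057 and 1134 at P21, and 1077, 1120.2, 1069 and 1149.7 at P80, a coefficient of variation of 3.34% over 11 libraries. GFP- values were 910.5, 1063, 884 and 985 at P7, 738, 1030.5 and 571 at P21, and 1003, 809.8, 1006 and 563 at P80. GFP+ and GFP- libraries overlapped at P7 through ES20, and the 2 lowest values were those of ES8 and ES16. The averaged difference was 0.38 ± 0.10 (limma adjusted p = 0.0022). It shrank to 0.17 (limma adjusted p = 0.0175) without ES8, ES12 and ES16. Abat was the member closest between populations per kilobase too, at 142 in GFP+ and 112 in GFP- nuclei.

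**Figure D1:**
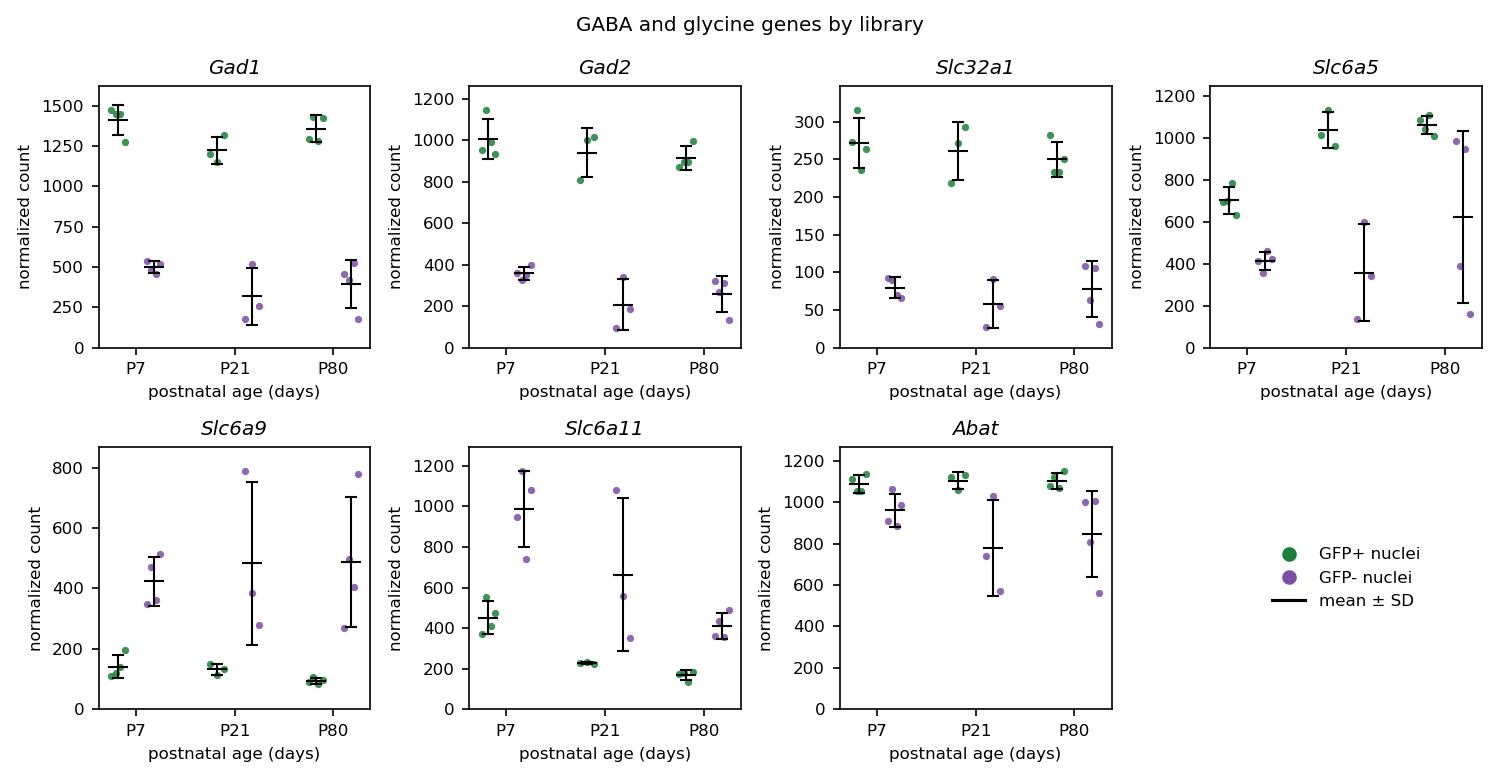
Normalized counts of the 7 genes in each of the 22 libraries, by postnatal age in days and population, each axis starting at 0. Points are libraries and bars are the group mean ± SD (n = 4 at P7 and P80, n = 3 at P21). Gad1, Gad2 and Slc32a1 are separated by population at every age, Slc6a9 and Slc6a11 lie lower in GFP+ nuclei, and Abat differs least.

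Averaged over the ages, 7 of 7 members passed an adjusted p of 0.05, with 5 higher and 2 lower in GFP+ nuclei. This stands beside a background of 48.2% of 18614 tested genes (22.6% higher, 25.5% lower), so passing this test was common among all genes. The median over the 7 members was 1.21 and the median over all tested genes was -0.02. In 4 of 7 members (Gad1, Gad2 and Slc32a1 higher, Slc6a9 lower) no GFP+ library overlapped any GFP- library over all ages. Among tested genes 3.6% were separated upward in this way and 4.81% downward. The share of tested genes separated within a single age is not given here. Separation over all ages includes separation within each age, so that share can be no smaller.

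The question whether the population difference held at each age was addressed next. At P7, 5 of 7 members passed the test (background 17.2%), at P21 all 7 (background 32.9%) and at P80, 6 (background 28%). Gad1 was higher in GFP+ nuclei by 1.50 ± 0.27 at P7, 2.09 ± 0.31 at P21 and 1.89 ± 0.27 at P80, with limma adjusted p-values of 0.000509, 4.34e-05 and 1.53e-05. Gad2 differed by 1.49, 2.36 and 1.89 and Slc32a1 by 1.77, 2.29 and 1.84 at the same ages, all past the threshold. Without ES8, ES12 and ES16, the P21 differences against the single library ES14 were 1.24 for Gad1, 1.45 for Gad2 and 1.50 for Slc32a1. The P80 differences were then 1.54, 1.60 and 1.46. The differences of Slc6a9 were -1.60 ± 0.29 at P7, -1.74 ± 0.33 at P21 and -2.27 ± 0.29 at P80, and those of Slc6a11 were -1.12, -1.39 and -1.28, again all past the threshold.

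Slc6a5 and Abat were the members whose calls varied with age. For Slc6a5 the difference was 0.76 ± 0.43 at P7 (limma adjusted p = 0.253), 1.78 ± 0.49 at P21 (0.00944) and 1.10 ± 0.43 at P80 (0.0618). The P7 libraries of Slc6a5 were tight, and a fit with the 2 groups of P7 alone gave the same difference with an adjusted p of 2.27e-05, as did leaving out ES8, ES12 and ES16 (0.0135). At P21 the Slc6a5 difference was 1.19 without ES12 (adjusted p = 0.0717), and against ES14 alone, with ES8, ES12 and ES16 left out, it was 0.79 (0.16). At P80, leaving out either ES2 or ES6 gave 1.43 and 1.42 (adjusted p = 0.0162 and 0.0183), and leaving out ES12 or ES14 left 1.10 with an adjusted p of 0.0327 or 0.0465. The P80 value was 0.57 (0.083) without ES8, ES12 and ES16. For Abat the differences were 0.18 at P7 (adjusted p = 0.489), 0.54 at P21 (0.0259) and 0.42 at P80 (0.0499). The P21 value of Abat was 0.34 (0.158) without ES16 and 0.10 (0.696) against ES14 alone, with the spread taken from the other groups, and it also missed the threshold without ES11, ES12 or ES15 (0.52 to 0.53). The P80 value of Abat was 0.24 (0.241) without ES8 and the same with an adjusted p of 0.036 without all 3 libraries, and its call was lost in 18 of the 22 fits that left out 1 library. Abat at P80 also missed the threshold with edgeR (0.41, adjusted p = 0.0728) and DESeq2 (0.39, 0.0635). That the population difference itself changed with age was not seen for any member: 0 of 7 passed the interaction test in limma (adjusted p between 0.568 and 0.894, background 0.951%), 0 of 7 were under an unadjusted p of 0.05, and edgeR called 0.

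**Figure D2:**
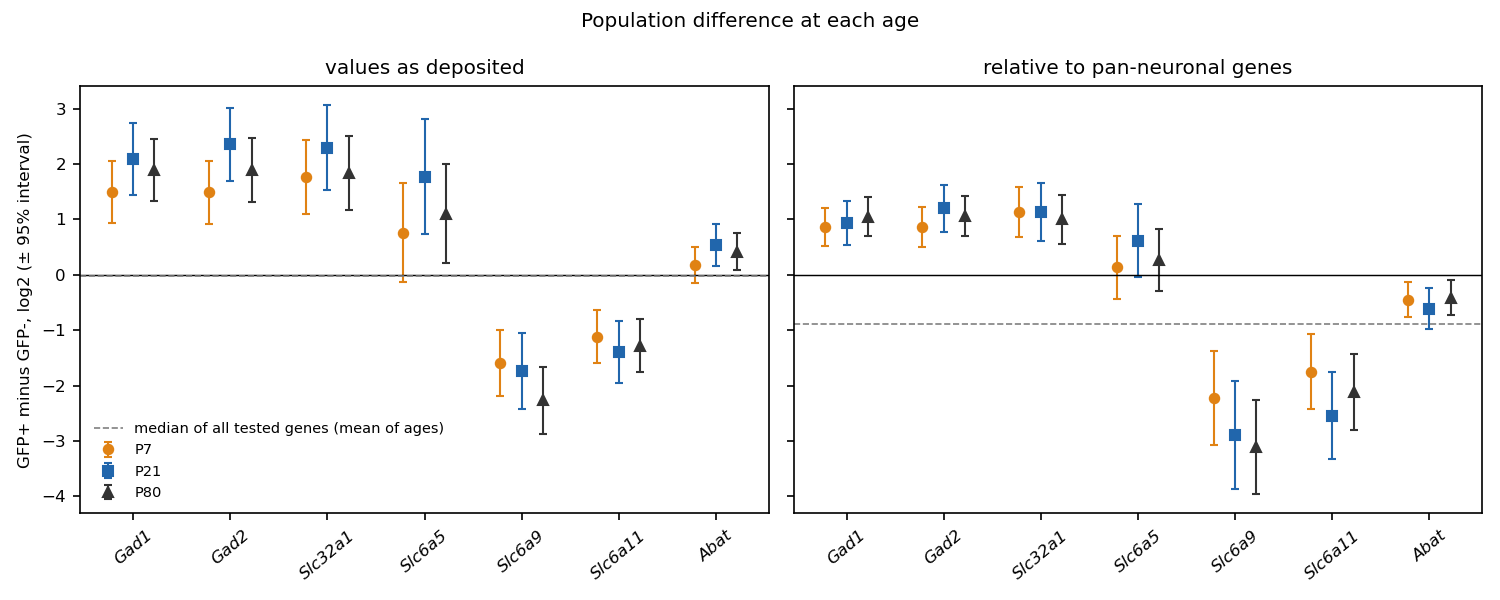
Log2 difference of GFP+ minus GFP- nuclei for each gene at P7, P21 and P80, with 95% intervals from the limma fit, as deposited (left) and after subtracting the library's pan-neuronal score (right). Dashed lines mark the median of all tested genes, -0.02 on the left and -0.90 on the right. Gad1, Gad2 and Slc32a1 stay above 0 in both panels, Slc6a5 comes close to 0 on the right and Abat changes sign.

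The populations differ in neuronal content as well as in lineage, so the members were also compared relative to the pan-neuronal score of the same library. This moves the median of all tested genes to -0.90, with 2.61% of genes called higher and 78.6% lower. On that scale Gad1 was higher by 0.95 ± 0.10 (limma adjusted p = 3.56e-08), Gad2 by 1.04 ± 0.11 (1.92e-08) and Slc32a1 by 1.09 ± 0.13 (2.15e-07). Slc6a5 stood at 0.34 ± 0.17 (adjusted p = 0.0632), so its excess over pan-neuronal genes did not pass the test, with an interval from -0.0033 to 0.68. Abat turned to -0.49 ± 0.09 (adjusted p = 6.03e-05), above the shifted median of all genes but below the pan-neuronal genes. Slc6a9 and Slc6a11 stood at -2.74 ± 0.25 and -2.14 ± 0.20.

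**Figure D3:**
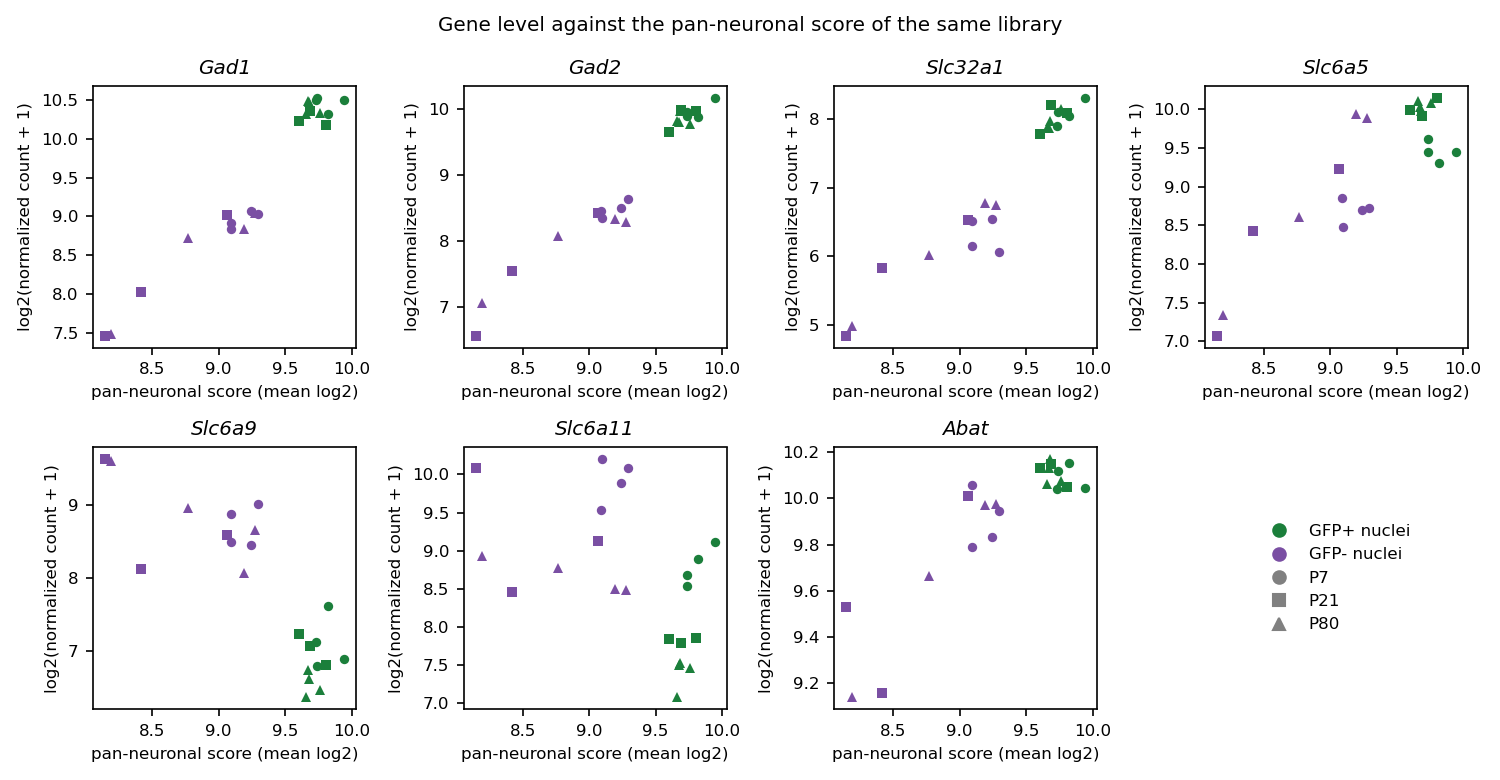
Level of each gene, as log2(normalized count + 1), against the pan-neuronal score of the same library (mean log2 level of 14 genes), with colour for population and marker shape for age. Gad1, Gad2 and Slc32a1 are lowest in the GFP- libraries with the lowest scores (8.15, 8.19 and 8.42), and Slc6a9 is highest in the first 2 of them. The axes share the library's depth and size factor, and no test is attached.

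Ratios taken within a library, after adding 1 to each normalized count, depend little on its size factor. The log2 ratio of Gad1 to Gad2 averaged 0.49 ± 0.14 in GFP+ and 0.56 ± 0.16 in GFP- libraries (SD, n = 11 each). The difference averaged over ages was -0.09, not past an exact permutation test within age (p = 0.247, 98000 relabellings, two-sided, adjusted over 4 ratios 0.247). Gad1 to Slc32a1 was 2.36 ± 0.19 in GFP+ and 2.49 ± 0.25 in GFP- libraries (difference -0.14, exact p = 0.148, adjusted 0.197). Both differences were smaller than the SD between libraries of 1 population.

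The ratio of the glycine transporter to the vesicular transporter differed between populations. Slc6a5 to Slc32a1 averaged 1.80 ± 0.40 in GFP+ libraries and 2.57 ± 0.38 in GFP- libraries, and the difference averaged over ages was -0.75. The exact permutation p was 2.04e-05, the smallest that the 98000 relabellings can give in a two-sided test, and 8.16e-05 adjusted over the 4 ratios. GFP+ libraries ran from 1.14 to 1.73 at P7, from 1.71 to 2.20 at P21 and from 1.93 to 2.24 at P80. GFP- libraries ran from 1.97 to 2.71 at P7, from 2.23 to 2.70 at P21 and from 2.36 to 3.17 at P80. At each age the highest GFP+ library was below the lowest GFP- library. The GFP- nuclei thus carried more Slc6a5 per unit of Slc32a1 at every age, although their level of each gene was lower. The margin at P21 was narrow, with ES11 (GFP+) at 2.205 and ES12 (GFP-) at 2.229, and ES12 held only 28 reads of Slc32a1. Slc6a9 to Slc6a11 also differed, at -1.14 ± 0.51 in GFP+ and -0.51 ± 0.67 in GFP- libraries (averaged difference -0.60, exact p = 8.16e-05, adjusted 0.000163).

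**Figure D4:**
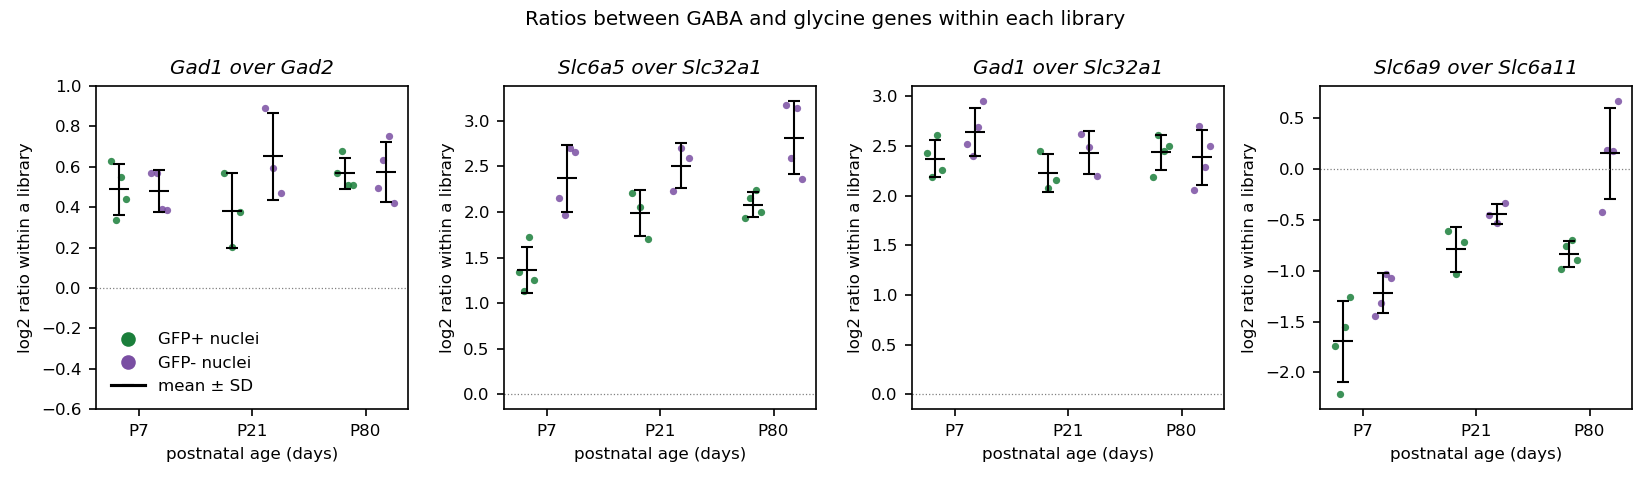
Log2 ratio between pairs of the genes within each library, by postnatal age in days and population, with points for libraries and bars for the group mean ± SD. Slc6a5 over Slc32a1 is lower in GFP+ nuclei at each age, with means of 1.36 against 2.37 at P7, 1.99 against 2.51 at P21 and 2.08 against 2.82 at P80. Gad1 over Gad2 overlaps between populations at all 3 ages.

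Age was compared next within each population. From P7 to P80 in GFP+ nuclei 1 of 7 members passed the test (background 9.39%): Slc6a11 fell by 1.42 ± 0.23 on the log2 scale (limma adjusted p = 0.000349), from 452 ± 80.2 to 168 ± 22.8 normalized counts (SD, n = 4 each). It had already fallen by 0.98 at P21 (adjusted p = 0.0394, background 2.33%, 0.0609 with edgeR). The call at P21 was lost in 11 of the 22 fits that left out 1 library (ES1, ES3, ES4, ES11, ES13, ES15, ES18, ES19, ES21, ES23 or ES24), with differences between -1.02 and -0.87. In GFP- nuclei Slc6a11 also fell from P7 to P80, by 1.26 ± 0.23 (adjusted p = 0.000603, background 16.3%), from 987 ± 188 to 410.4 ± 63.7.

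Markers of astrocytes were lower in GFP+ nuclei, as Slc6a11 and Slc6a9 were. From P7 to P80 most of these markers fell in GFP+ nuclei, as Slc6a11 did. Slc6a9 differed by -0.56 there and by 0.11 in GFP- nuclei, neither called in the fit to all libraries. All 12 of 12 astrocyte genes were lower in GFP+ nuclei (background 25.5% lower), and 10 of 12 fell from P7 to P80 within GFP+ nuclei (background 5.91% lower), with a median of -1.79. The summed level of the 12 was 4096 to 5593 in GFP+ libraries at P7, 2555 to 3036 at P21 and 1391 to 1908 at P80, against 8354 to 26849 in GFP- libraries. In GFP- nuclei 5 of 12 fell from P7 to P80 (background 8.77% lower), with a median of -0.74. That count was 8 without ES8, ES12 and ES16 and ran from 3 to 6 with 1 library left out. None of the 12 was at 0 in any library. Among them the water channel Aqp4 fell by 2.29 and the glutamate transporter Slc1a3 by 2.84 on the log2 scale in GFP+ nuclei from P7 to P80. Other glial genes were lower in GFP+ nuclei too. In every fit that left out 1 library, 12 of 12 oligodendrocyte and 7 of 7 oligodendrocyte precursor genes tested were lower, and 7 to 8 microglia genes. From P7 to P80 in GFP+ nuclei, 9 oligodendrocyte, 7 precursor and 0 to 1 microglia genes fell in those fits. In GFP- nuclei 0, 3 to 5 and 0 fell, and 3 to 6 oligodendrocyte genes rose. The part of astrocyte or other glial RNA in the Slc6a11 and Slc6a9 results was not tested.

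Gad1, Gad2, Slc32a1 and Abat did not pass in any age comparison of GFP+ nuclei. Their P80 minus P7 differences were -0.06 (95% interval -0.61 to 0.50), -0.13 (-0.71 to 0.44), -0.12 (-0.78 to 0.55) and 0.02 (-0.31 to 0.35). From P21 to P80, 0 of 7 members passed in limma, edgeR or DESeq2, and 0 were under an unadjusted p of 0.05 in each (background 0.242%). In GFP- nuclei 0 of 7 passed over that interval in the same tools, with 1 under an unadjusted p of 0.05 in each (background 1.95%).

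Slc6a5 was at 701 ± 63.6 normalized counts at P7, 1036 ± 87.3 at P21 and 1059 ± 43.0 at P80 in GFP+ nuclei (SD), and every P21 and P80 library exceeded every P7 library. The P80 minus P7 difference of 0.60 ± 0.43 did not pass in the fit to all 22 libraries (limma adjusted p = 0.45), whose pooled spread includes the wide GFP- groups. A fit to the 11 GFP+ libraries alone gave the same difference with an adjusted p of 7.00e-06, and 0.56 for P21 minus P7 (0.000112). That fit called 4265 genes in place of 1747. The authors' deposited table gives Slc6a5 an across-age adjusted p of 7.88e-11 in GFP+ nuclei and places it in cluster B. It gives Slc6a11 1.32e-22 and cluster D, and Slc6a9 0.0582 with no cluster. In GFP- nuclei Slc6a5 differed by 0.26 from P7 to P80 (adjusted p = 0.746), and by 0.79 (0.0205) without ES8, ES12 and ES16. The Slc6a5 to Slc32a1 ratio was higher at P80 than at P7 in GFP+ nuclei by 0.72, without overlap (exact permutation p = 0.0286, the smallest that 4 against 4 can give, adjusted over 8 comparisons 0.0762). In GFP- nuclei the ratio differed by 0.45 (exact p = 0.171, adjusted 0.343).

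Slc6a9 was at 141 ± 39.1 in GFP+ nuclei at P7, 132 ± 19.1 at P21 and 93.5 ± 10.5 at P80. Its P80 minus P7 difference of -0.56 ± 0.29 missed the threshold over all libraries (limma adjusted p = 0.259) and passed it with the GFP+ libraries alone (0.0159) or without ES8, ES12 and ES16 (0.0355). In GFP- nuclei it stood at 423 ± 81.7 at P7 and 486 ± 216 at P80, with no call. Slc6a9 to Slc6a11 was higher at P80 than at P7 by 0.86 in GFP+ and by 1.37 in GFP- nuclei, each without overlap (exact permutation p = 0.0286 for both, adjusted 0.0762).

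In GFP- nuclei the GABA genes were lowest in the libraries of low neuronal score. From P7 to P21 Gad2 fell by 0.97 ± 0.30 (limma adjusted p = 0.0429, background 10.1%), the 1 member called. The value was -0.50 (adjusted p = 0.213) without ES12, and the call was lost in 16 of the 22 fits that left out 1 library. With ES14 as the only P21 library, its spread taken from the other groups, the value was -0.06. Slc6a11 differed by -0.71 over the same interval, without a call (limma adjusted p = 0.072). It was at -1.14 (adjusted p = 0.0022) without ES12 and at -0.80 with ES14 as the only P21 library. Calls were gained in 2 of the 22 fits for Gad1 and in 1 each for Slc6a11 and Abat. Relative to the pan-neuronal score 0 of 7 members were called there in limma (background 32.6%), and edgeR on the deposited scale also called 0, with 3 under an unadjusted p of 0.05.

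Other genes of GABA and glycine handling were taken as 6 lists of 37 genes, all but Bhmt tested, and the counts below stand beside 22.6% of all tested genes higher and 25.5% lower, to which several of them are close. Relative to the pan-neuronal score, which shifts the median of all tested genes to -0.90, 0 genes of the 6 lists were called higher. On that scale only 2.61% of all tested genes were called higher, so a count of 0 is close to the background. Among the 3 other GABA and taurine transporters examined, 0 were higher in GFP+ nuclei, 2 were lower and 1, the taurine transporter Slc6a6, did not pass, with a median of -1.46. Slc6a12 and Slc6a13, transporters of GABA, betaine and taurine found at the meninges and vessels, stood at -1.46 and -2.58 and were scarce, at 12.3 and 23.7 normalized counts in GFP- nuclei.

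Of the enzymes downstream of Abat and of astrocytic GABA synthesis, 0 were higher, 3 lower and 2 not past the test. Aldh5a1, which oxidizes the product of Abat, was at 301 ± 17.6 in GFP+ and 306 ± 38.6 in GFP- nuclei, a difference of -0.02 (95% interval -0.15 to 0.13). Aldh1a1, Maob and Aldh9a1, which can form GABA from putrescine in other cells, stood at -1.65, -0.88 and -0.42, all past the threshold. Both Aldh1a1 and Maob shrank without library ES16. Aldh1a1 was then at -1.06 and lost its call (limma adjusted p = 0.0768), and Maob was at -0.57 and kept it (0.00849). The call of Aldh1a1 was lost in 7 of the 22 fits that left out 1 library. Without ES8, ES12 and ES16, Aldh9a1 was at -0.19 (adjusted p = 0.118), and 1 gene of the list, Maob, was called. In the list of GAD cofactor and trafficking genes 3 of 5 examined were higher and 0 lower, and 2 were higher without those 3 libraries. Pdxp, a pyridoxal phosphate phosphatase, stood at 0.50, with its call lost there. Pdxk, the kinase that makes the pyridoxal phosphate needed by both decarboxylases, was higher by 0.49 ± 0.06 (adjusted p = 6.15e-07). It stood at -0.38 relative to the pan-neuronal score. The third of the genes called higher in this list lost its call in 18 of the 22 fits that left out 1 library.

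The genes of glutamate and glutamine supply moved in both directions, with 3 of 10 higher in GFP+ nuclei, 6 lower and 1 not past the test. The neuronal glutamate transporter Slc1a1 was higher by 0.76, the glutaminase Gls2 by 0.61 and the glutamine carrier Slc38a1 by 0.52, while relative to the pan-neuronal score they stood at -0.12, -0.27 and -0.36. Gls2 was at 0.29 (adjusted p = 0.0555) without ES8, ES12 and ES16. The astrocytic glutamine exporter Slc38a3 stood at -2.94, the glutamate transporters Slc1a3 and Slc1a2 at -2.63 and -2.04, and glutamine synthetase, Glul, at -1.78. Gls2 rose with age in GFP+ nuclei, from 84.7 ± 12.1 at P7 to 202 ± 29.2 at P21 and 259 ± 8.49 at P80. The P80 minus P7 difference there was 1.61 ± 0.27 (limma adjusted p = 0.000394). Its means also increased in GFP- nuclei, from 70.8 ± 16.2 at P7 to 109 ± 52.4 at P21 and 187 ± 71.7 at P80.

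The list of serine and glycine synthesis had a median of -1.04, with 1 of 9 genes higher, 7 lower and 1 not past the test. Phgdh and Psat1, which start serine synthesis, stood at -2.47 and -2.37, and the serine and glycine exchanger Slc7a10 at -3.22. Srr, which makes D-serine, was the 1 higher, at 0.22, and stood at -0.65 relative to the pan-neuronal score. Slc7a10 also fell by 2.73 in GFP+ nuclei from P7 to P80, alongside the astrocyte markers given above. Shmt1, which turns serine into glycine in the cytosol, stood at -1.04, while its mitochondrial counterpart Shmt2 was at 0.13 and did not pass, though it did without ES16 (0.27, adjusted p = 0.0313). In the glycine cleavage system 1 of 4 genes was called: Amt, the aminomethyltransferase, was higher by 0.31 ± 0.08 (adjusted p = 0.00191) and stood at -0.56 relative to the pan-neuronal score. Gcsh, at 0.50, was also called without those 3 libraries (0.55, adjusted p = 0.023). Gldc, which starts glycine breakdown, was at -0.14 (95% interval -0.58 to 0.30).

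**Figure D5:**
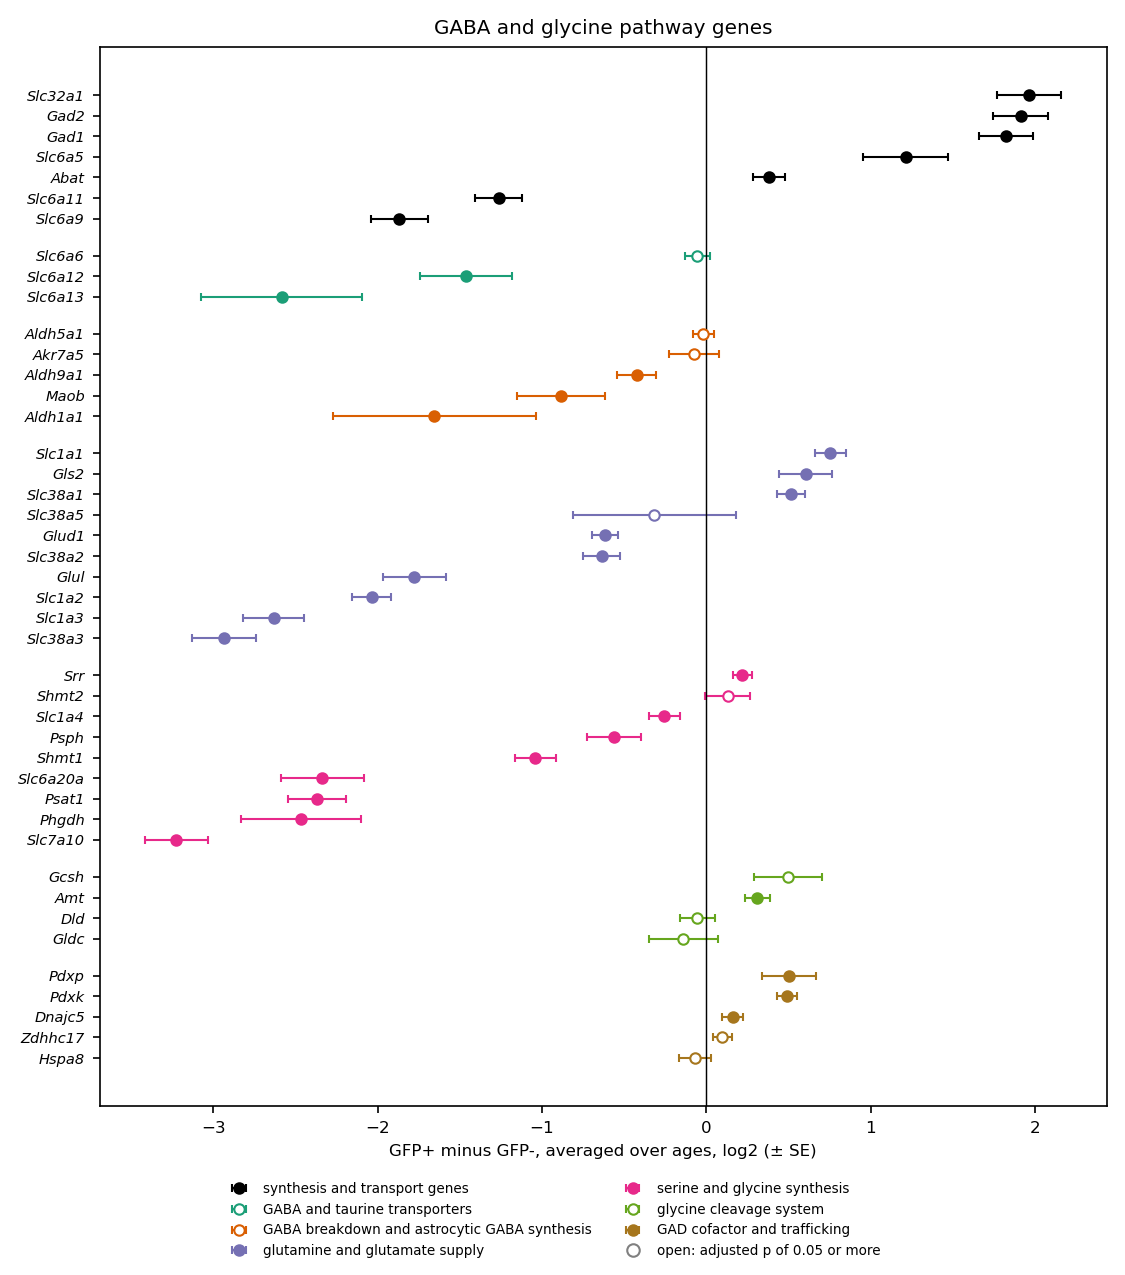
Log2 difference of GFP+ minus GFP- nuclei averaged over the ages, with its SE, for the 7 genes and 36 other tested genes of GABA and glycine handling, coloured by list. Filled points passed an adjusted p of 0.05. Genes such as Slc1a1, Gls2 and Pdxk lie to the right, and Slc7a10, Slc38a3 and Slc1a3 lie farthest to the left.

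Genes with a profile most like each member were ranked by the root mean square difference of centred log2 values over the 22 libraries. Only tested genes with a mean log2 level at or above the median of tested genes were searched. Genes with clone, Gm, Rik or microRNA names were left out. The ranking is a description in which population and neuronal content weigh heavily. Gad1 was nearest to Gad2 (0.15), then Cacna2d3 (0.18), a calcium channel subunit, and Bcl11b (0.20), a transcription factor. Gad2 was followed by Gad1, Slc32a1 (0.23) and Cacna2d3 (0.24). For Slc32a1 the order was Cacna2d3 (0.21), Gad1 (0.22) and Gad2 (0.23). Slc6a5 was nearest to none of the other members, with Flt3, Dgkg and Ryr2 at 0.21, 0.21 and 0.25. Slc6a9 was nearest to Prex1 (0.20), Myo6 (0.25) and Wscd1 (0.28), and Slc6a11 to Tlcd1 (0.25), Pou3f2 (0.28) and Ptn (0.29). Abat was nearest to Sh3gl2, a gene of synaptic vesicle endocytosis, and Ggt7 (both 0.12). The members' own SDs over the same libraries ran from 0.30 for Abat to 1.10 for Slc32a1.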

How the data were processed

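The table was used as deposited. Per the submitters' processing notes, Trim Galore, cutadapt, STAR, HTSeq and DESeq2 were used, whose versions, genome build, annotation and strand setting no source used here gives. The per-library values are a normalized signal that the authors made by dividing read counts by 1 size factor per library: divided by the value of 1 read, 100% of values came within 0.01 of a whole number, so whole reads were recovered for use with edgeR (version 4.0.16; 9136 genes called between populations) and DESeq2 (version 1.42.0; 9265). The deposited log2 fold changes, p-values and adjusted p-values of the authors were used only where named. Columns were mapped to groups, not to animals. The labels give 11 separate animals, and each library was 1 replicate of its group.

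Of 21363 genes, the 18614 that reached a value of 10 in 3 or more libraries were tested. limma (version 3.58.1, R 4.3.3, trend and robust) fitted 6 group means to log2(value + 1), which understates changes of low genes, with two-sided tests and Benjamini-Hochberg adjustment over all tested genes. A second fit subtracted each library's pan-neuronal score. Ratios were tested by exact permutation. The tests were checked on simulated data. The members and lists were chosen with earlier results of these data known. Named genes are the members, up to 3 called genes per pathway list and direction with the largest averaged differences, the transporters of the GABA list and the 3 nearest profiles of each member. Aldh5a1, Glul, Shmt1, Shmt2, Gldc, Gcsh and the marker genes were named after their values were seen. Alternatives were other pseudocounts, filters, normalization, tools and left-out libraries, those of list genes added after seeing the data. Lhfpl3 and Slc17a7, markers in the lists, were not analysed here, and 3 pathway genes and 1 nearest profile are not reported here.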

Additional observations from a re-analysis of the deposited data

Results flagged for a closer look

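In 44 groups of 4 libraries checked, 2 held a library apart from the others, and chance sets about 5% of groups apart. Gad1 in GFP+ nuclei at P7 was 1272 normalized counts in library ES23, below the other 3, which lay between 1448 and 1475. Slc6a11 in GFP+ nuclei at P80 was 134 in library ES5, below the other 3, which lay between 176 and 183.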

How the results depend on the processing

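No paired analysis was possible because the table's library codes are not tied to animals, although the labels pair the populations by animal. Relative to the pan-neuronal score, counts were 15121 averaged over ages (8967 as deposited), 6666 at P7 (3203), 13342 at P21 (6128), 10708 at P80 (5214), 110 from P7 to P21 in GFP+ nuclei (433), 2 from P21 to P80 (45) and 743 from P7 to P80 (1747). They were 6065 from P7 to P21 in GFP- nuclei (1879), 54 from P21 to P80 (363) and 2 in the interaction (177). On that scale Slc6a5 averaged over ages was 0.34 and Abat -0.49. Abat was -0.45 at P7, -0.61 at P21, -0.41 at P80 and 0.11 from P7 to P80 in GFP- nuclei. Slc32a1 was 0.13 there. In GFP+ nuclei Gad1 was 0.061 from P7 to P80, and Gad2, Slc32a1 and Slc6a9 were 0.011, 0.049 and 0.039 from P7 to P21. Members called were 0 from P7 to P21 in each population (1 each as deposited) and 0 from P7 to P80 in GFP- nuclei (1).

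Fits to the 2 groups of 1 age called 5154 genes at P7 and 2729 at P21. Fits to 1 population called 2026, 213 and 4265 genes in GFP+ nuclei (P7 to P21, P21 to P80, P7 to P80) and 130, 5 and 1370 in GFP- nuclei. Those fits called 2 members from P7 to P21 and 3 from P7 to P80 in GFP+ nuclei, and 0 from P7 to P21 in GFP- nuclei. Without ES8, ES12 and ES16, chosen after seeing the data as were the fits to 1 population, 5618 genes were called at P7 and 2887 at P21. Over the age intervals in the same order, 1729, 219 and 3872 were called in GFP+ nuclei, 811, 72 and 4601 in GFP- nuclei and 538 in the interaction. From P7 to P80, 2 members were then called in each population, and in GFP- nuclei Slc32a1 was 0.19 and Slc6a9 -0.15.

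DESeq2 called 700 genes from P7 to P21 and 73 from P21 to P80 in GFP+ nuclei, and 3688 and 1977 in GFP- nuclei. edgeR called 6 from P21 to P80 in GFP+ nuclei, 3184 and 1441 in GFP- nuclei, and 0 members from P7 to P21 in each population. A pseudocount of 5 left 21 genes from P21 to P80 in GFP+ nuclei.

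Leaving out 1 library at a time gave 188 to 802 genes from P7 to P21, 3 to 84 from P21 to P80 and 1085 to 2618 from P7 to P80 in GFP+ nuclei. It gave 981 to 3883 and 180 to 2640 over the first intervals in GFP- nuclei and 68 to 440 in the interaction. Members called ran from 0 to 1 (GFP+, P7 to P21), 0 to 3 (GFP-, P7 to P21) and 0 to 1 (GFP-, P21 to P80). From P7 to P21 in GFP+ nuclei Gad2 ran from -0.16 to 0.0071, Slc32a1 from -0.15 to 0.060 and Slc6a9 from -0.18 to 0.10. From P7 to P80 in GFP- nuclei Slc32a1 ran from -0.40 to 0.19, Slc6a5 from -0.071 to 0.79 and Slc6a9 from -0.15 to 0.37. The causes were not tested. Gad1, Gad2, Slc32a1, Slc6a9 and Slc6a11 averaged over ages kept their direction and call in each alternative run, and TMM moved no median by more than 0.04. Depth limited Slc32a1 most, with 28 to 112 reads in GFP- libraries. These fits share libraries and are not independent.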
